A study of Mus musculus with 6 samples.

Results

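The mRNA levels of 10 cytokine receptor genes, Csf1r, Csf2ra, Csf2rb, Csf3r, Il6st, Il6ra, Tgfbr1, Tgfbr2, Ifngr1 and Ifnar1, were followed in hematopoietic stem cells (HSCs) with and without a short exposure to insulin-like growth factor 1 (IGF1). The genes were chosen by symbol, and all 10 were found among the 21878 gene rows of each library. RNA-seq libraries came from HSCs sorted from the bone marrow (BM) of wild-type mice, 3 from control mice given vehicle and 3 from mice given IGF1. Per the study's methods the mice were of the C57BL/6 strain and received a single subcutaneous injection of recombinant IGF1 (200 µg/kg), and the cells were taken at day 1. The design of the series gives the sorting gate as cells without CD34, Flk2 or lineage markers and with Sca1 and c-Kit. A part of the labels speaks of irradiated mice, whereas the treatment label, the series and the paper name IGF1, which was followed here. The ages of the mice are not given in the sources used here. Nothing states that the libraries of a group came from separate mice, so the p-values below measure the spread between libraries, which may be technical.

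Cytokine receptors carry signals from the marrow and from inflamed tissue into blood stem and progenitor cells. The interferon receptors, the granulocyte colony-stimulating factor (G-CSF) receptor and gp130 have no kinase of their own and work through Janus kinases, which activate STAT factors. The macrophage colony-stimulating factor (M-CSF) receptor is itself a tyrosine kinase, and the TGF-β receptors are serine/threonine kinases that activate SMAD proteins. In the marrow, TGF-β is known for holding HSCs in quiescence, interferons for driving them into cycle, and the colony-stimulating factors for the output of granulocytes and macrophages.

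The libraries of a group did not all lie together, and this touches every result below. Control replicates 1 and 3 were close to each other, with 1.06% of genes over 2-fold apart in reads, and the IGF1 libraries differed from one another at 1.146 to 1.197% of genes. Control replicate 2 differed from the other controls at 34.7 to 34.8% of genes and from the IGF1 libraries at 7.16 to 7.71%. Between 11429050 and 15973581 reads were recovered from the values of a control library and between 11206746 and 12756177 from those of an IGF1 library. The receptor results and the counts over gene lists are therefore given with and without control replicate 2. The labels name no batch, and within controls 1 and 3 and within the IGF1 group the receptors were tight. The higher of controls 1 and 3 exceeded the lower by 0.419 to 9.39% over the 10 receptors, and the highest IGF1 library exceeded the lowest by 2.20 to 14.6%.

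The gate was checked against marker genes, with levels in FPKM (fragments per kilobase of transcript, scaled to the mapped reads of the library) and genes called at over 2-fold with an adjusted p under 0.05 in limma. Ly6a, which encodes Sca1, was the highest of 15 HSC markers, and the list summed to 564 to 766 FPKM in the controls and 510 to 526 FPKM in the IGF1 libraries. Of 13 of them tested, 0 were called over all libraries, with 6 lower at an unadjusted p under 0.05. With control replicate 2 left out, 5 were called lower, led by Kit, the gene of c-Kit (-2.06). For this list and those below, the shares over all genes were 1.98% called higher and 4.63% called lower. They were 19.0% and 34.4% at an unadjusted p under 0.05, and 12.3% and 20.6% called without control replicate 2. Cd34, whose protein the gate leaves out, was present at 265 to 640 FPKM in the controls and 230 to 238 FPKM in the IGF1 libraries. Flt3, the gene of Flk2, was at 117 to 172 and 183 to 188 FPKM. Of the markers of mature lineages in the gate, Cd3e and Ly6g did not exceed 0.206 FPKM. Ly6c1 reached 2.86 FPKM, and Itgam, the gene of CD11b, was at 4.46 to 7.96 FPKM. Ly6c2, another Ly6C gene that was listed with the monocyte markers, was far higher. It was at 26.7, 379 and 29.6 FPKM in the controls (replicates in order) and 340 to 347 FPKM with IGF1. Transcripts of the granulocyte lineage were abundant in all libraries, led by the enzyme gene Mpo at 1613 to 1705 FPKM. The sum over 16 neutrophil and granulocyte precursor markers was 3266, 5601 and 3312 FPKM in the controls (replicates in order) and 5617 to 5667 FPKM with IGF1. Of the 13 of these that could be tested, 0 were called higher and 4 lower (Ngp, Camp, S100a8 and S100a9, all made in maturing granulocytes), and 5 higher and 6 lower without control replicate 2. Elane, which encodes neutrophil elastase, was at 92.8, 576 and 92.5 FPKM in the controls and 692 to 709 FPKM with IGF1, at 2.03 on the log2 scale over all libraries (adjusted p = 0.0726) and 2.90 without control replicate 2. Prtn3, another granule protease, was at 1.14 (adjusted p = 0.0808) and 1.62. The list thus held members that differed in opposite directions. The sum over 15 monocyte and macrophage markers, led by Lyz2, was 667, 1065 and 675 FPKM in the controls and 1002 to 1013 FPKM with IGF1. Of 12 tested, 0 were called over all libraries, with 1 higher and 2 lower at an unadjusted p under 0.05. Without control replicate 2, Ly6c2 (3.57) and Ms4a6c (1.31) were called higher and Vcam1 (-2.53) lower. The sum over 10 B cell markers, led by Vpreb1, was 129, 509 and 127 FPKM in the controls and 486 to 508 FPKM with IGF1, with 0 of 8 tested called over all libraries, 5 higher at an unadjusted p under 0.05 and 5 called higher without control replicate 2. These lists had no marker at 0 in every library. The sums were 389 to 810 and 802 to 820 FPKM for T and NK cell markers, led by Nkg7, and 42.3 to 114 and 57.4 to 63.2 FPKM for erythroid markers, led by Hbb-bt. They were 60.6 to 80.8 and 103 to 114 FPKM for megakaryocyte markers, led by Pf4, of which Gp6 was listed at 0 throughout, and 15.5 to 27.8 and 14.3 to 16.5 FPKM for stromal and endothelial markers, led by Emcn. Of these, 1 of 6 megakaryocyte markers tested was called higher (Treml1), and 0 of 4 T and NK cell, 0 of 7 erythroid and 0 of 2 stromal and endothelial markers were called. Without control replicate 2, 3 megakaryocyte markers and 1 T and NK cell marker (Nkg7) were called higher. Control replicate 2 was close to the IGF1 group in the granulocyte, monocyte and B cell sums, as for most receptors. For Camp, S100a8 and S100a9 it stayed nearer the other controls, at 27.0, 36.8 and 27.8% of the distance to the IGF1 mean. For Ngp it was at 62.4%. The part of these cell types in the receptor values was not tested. In bulk libraries, fewer cells of a type and less RNA per cell cannot be told apart.

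Among the receptors, Ifngr1, a chain of the interferon-γ receptor, was lower with IGF1 and was the only one called over all libraries. The fit was made on log2(FPKM + 1) over the 10449 genes that reached 1 FPKM in 3 or more libraries. All 10 receptors passed that filter. Of these, 1 was called lower (Ifngr1) and 0 were called higher, against 4.63% of all genes called lower and 1.98% called higher. At an unadjusted p under 0.05, 1 receptor was higher (Il6ra) and 2 were lower (Ifngr1 and Ifnar1), where the same holds for 19.0% and 34.4% of all genes. The IGF1 and control libraries did not overlap for 7 receptors, 3 higher and 4 lower with IGF1, and for 59.4% of all genes, 21.9% higher and 37.4% lower. The median log2 fold change, IGF1 minus control, was -0.45 over the receptors and -0.18 over all genes. Once control replicate 2 was left out, 3 receptors were called lower (Ifngr1, Csf3r and Ifnar1) and 0 higher, against 20.6% and 12.3% of all genes, and the medians were -0.65 and -0.25. By adjusted p under 0.05 alone, with no fold threshold, 2 receptors were then higher (Csf2ra and Il6ra) and 7 lower, against 34.9% and 53.6% of all genes.

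**Figure D1:**
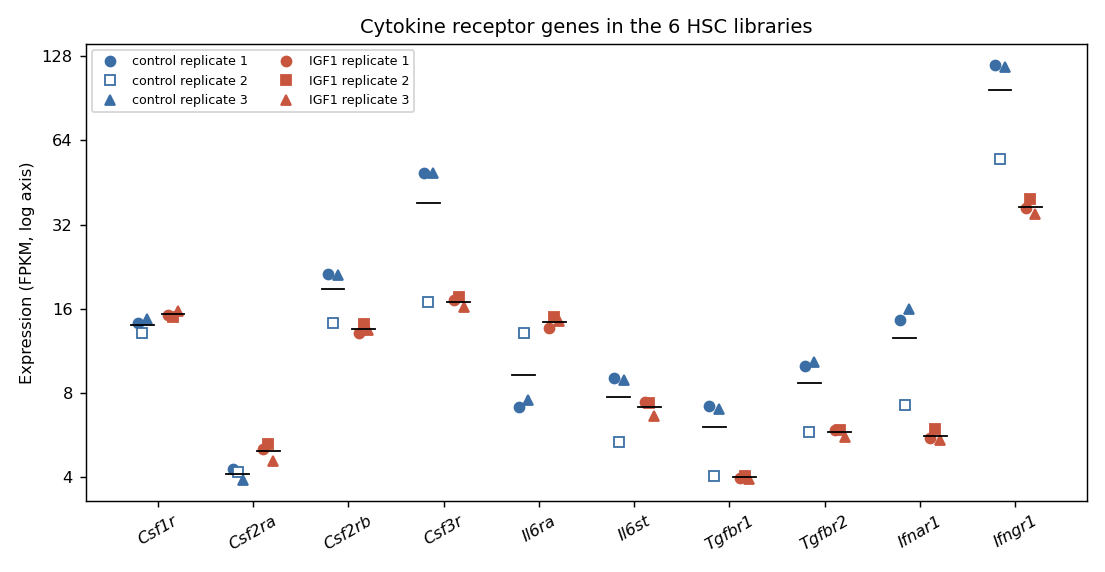
Expression of each receptor gene in each library, in FPKM on a log axis. Blue marks are control and red marks IGF1 libraries, the open square is control replicate 2, and bars are group means. Ifngr1 lies at 34.8 to 39.5 FPKM in the IGF1 libraries against 117 to 119 FPKM in control replicates 1 and 3, with control replicate 2 at 55.0 FPKM.

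The interferon receptors were followed first. Ifngr1 encodes the ligand-binding chain of the interferon-γ receptor and lies on chromosome 10 (19591949 to 19610229, plus strand, GRCm38). It was at 119, 55.0 and 117 FPKM in the controls and at 36.7, 39.5 and 34.8 FPKM with IGF1, here and below in the order of the replicate numbers. All IGF1 libraries were below all controls, and control replicate 2 took a middle place. The means were 97.0 ± 36.4 FPKM (SD, n = 3) and 37.0 ± 2.36 FPKM (SD, n = 3), so that the control mean was 2.62 times the IGF1 mean. Ifngr1 fell by 1.29 on the log2 scale (SE 0.31, adjusted p = 0.0445 by limma), and by 1.65 (adjusted p = 8.1e-10) with control replicate 2 left out. The exact permutation test of 3 libraries against 3, 2-sided, gave p = 0.1, the smallest it can give. The call ended when any other library was left out, with adjusted p from 0.152 to 0.164.

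Ifnar1 encodes a chain of the receptor for type I interferons and lies on chromosome 16 (91485238 to 91507441, plus strand). It was at 14.6, 7.22 and 15.9 FPKM in the controls and at 5.52, 5.94 and 5.44 FPKM with IGF1. Here too the groups did not overlap and control replicate 2 was the lowest control. The difference over all libraries was -0.96 on the log2 scale (SE 0.29, adjusted p = 0.0556) and did not pass. With controls 1 and 3 alone Ifnar1 was called lower, at -1.29 (adjusted p = 2.7e-08).

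The second chains of the same receptors gave other values. Ifngr2, the partner that brings in JAK2, was at 26.7, 16.4 and 25.8 FPKM in the controls and 15.1 to 16.1 FPKM with IGF1, a difference of -0.49 (adjusted p = 0.0921) over all libraries and -0.71 (adjusted p = 3.0e-07) without control replicate 2. The ratio of Ifngr1 to Ifngr2 was 4.46, 3.36 and 4.53 in the controls and 2.19 to 2.45 in the IGF1 libraries, so the ratio did not overlap between the groups. Ifnar2, the other chain of the type I interferon receptor, was at 33.7, 42.2 and 33.8 FPKM in the controls and 40.8 to 44.6 FPKM with IGF1, a difference of 0.21 (adjusted p = 0.193), and 0.32 (adjusted p = 9.7e-05) without control replicate 2. The ratio of Ifnar1 to Ifnar2 was 0.434, 0.171 and 0.471 in the controls and 0.133 in each IGF1 library. These ratios were given no test, and a ratio within a library shows unequal levels, not which chain changed.

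The receptors of the colony-stimulating factors had differences of both signs, and none was called over all libraries. Csf3r, the G-CSF receptor of the granulocyte lineage, lies on chromosome 4 (126024550 to 126044440, plus strand). It was at 49.1, 16.98 and 48.9 FPKM in the controls and at 17.2, 17.6 and 16.2 FPKM with IGF1. Control replicate 2 fell inside the range of the IGF1 libraries, and the groups overlapped. The difference was -0.98 on the log2 scale (SE 0.41, adjusted p = 0.0985, exact permutation p = 0.3). Against controls 1 and 3 alone it was -1.48 (adjusted p = 1.1e-09) and was called lower, with a mean in those controls 2.88 times that of the IGF1 libraries. Against control replicate 2 alone the difference was 0.00.

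Csf2rb encodes the β chain shared by the receptors for GM-CSF, IL-3 and IL-5, and lies on chromosome 15 (78325752 to 78353847, plus strand). It was at 21.4, 14.3 and 21.1 FPKM in the controls and at 13.1, 14.2 and 13.5 FPKM with IGF1. The groups did not overlap, but control replicate 2 exceeded the highest IGF1 library only narrowly. The difference was -0.43 (SE 0.17, adjusted p = 0.0943) over all libraries and -0.61 (adjusted p = 1.4e-06) with controls 1 and 3 alone, less than 2-fold. The mouse carries a close copy, Csf2rb2, which makes an IL-3 receptor chain, and reads of the copies could be split between them in counting. Csf2rb2 was at 2.14 to 2.44 FPKM in the controls and 1.16 to 1.45 FPKM with IGF1, a difference of -0.51 (adjusted p = 0.0369) under the 2-fold threshold.

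Csf2ra, the ligand-binding chain of the GM-CSF receptor (chromosome 19, 61223957 to 61228429, minus strand), had a difference of opposite sign to that of its partner. Neither was called. It was at 4.28, 4.16 and 3.91 FPKM in the controls and at 5.05, 5.26 and 4.59 FPKM with IGF1. All IGF1 libraries were above all controls, and control replicate 2 lay among the controls. The difference was 0.22 (SE 0.11, adjusted p = 0.143), and 0.23 (adjusted p = 0.0172) without control replicate 2. The ratio of Csf2ra to Csf2rb was 0.186 to 0.292 in the controls and 0.340 to 0.385 with IGF1.

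Csf1r, the M-CSF receptor that marks the monocyte and macrophage lineage (chromosome 18, 61100598 to 61132149, plus strand), had the smallest ratio of highest to lowest library of the 10. It was at 14.2, 13.1 and 14.7 FPKM in the controls and at 15.2, 14.9 and 15.8 FPKM with IGF1. The groups did not overlap, by a narrow gap. The difference was 0.12 (SE 0.10, adjusted p = 0.344), and 0.07 (adjusted p = 0.186) without control replicate 2.

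In the receptor pair for interleukin-6 neither gene was called over all libraries, and the genes were not tested against each other. Il6ra, which binds IL-6 itself, lies on chromosome 3 (89864059 to 89913196, minus strand). It was at 7.13, 13.1 and 7.55 FPKM in the controls and at 13.7, 14.9 and 14.5 FPKM with IGF1. Every IGF1 library was above every control, with control replicate 2 just below them. The difference was 0.63 (SE 0.23, adjusted p = 0.0771) and did not pass. With control replicate 2 left out it was 0.88 (adjusted p = 2.3e-07), short of 2-fold, and the IGF1 mean was 1.96 times that of controls 1 and 3.

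Il6st encodes gp130, the signalling chain shared by IL-6, IL-11, LIF and oncostatin M, and lies on chromosome 13 (112464070 to 112510086, plus strand). It was at 9.03, 5.34 and 8.92 FPKM in the controls and at 7.43, 7.35 and 6.62 FPKM with IGF1. The IGF1 libraries lay between control replicate 2 and the other controls. The difference was -0.08 (SE 0.21, adjusted p = 0.760, exact permutation p = 1.0), and -0.30 (adjusted p = 0.0017) without control replicate 2. Its sign turned with the scaling, to 0.21 under quantile normalization, so no direction is given. The ratio of Il6st to Il6ra was 1.27, 0.407 and 1.18 in the controls and 0.457 to 0.543 with IGF1.

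The TGF-β receptor chains kept nearly the same proportion of FPKM in all libraries, although their differences parted once trends with transcript length and GC content were removed. Tgfbr1, the type I chain that phosphorylates SMAD proteins, lies on chromosome 4 (47353222 to 47414931, plus strand). It was at 7.17, 4.04 and 6.99 FPKM in the controls and at 3.99, 4.03 and 3.95 FPKM with IGF1. Tgfbr2, the type II chain that binds the ligand first, lies on chromosome 9 (116084293 to 116175360, minus strand). It was at 9.96, 5.79 and 10.3 FPKM in the controls and at 5.90, 5.90 and 5.56 FPKM with IGF1. For both genes control replicate 2 had the level of the IGF1 libraries. The groups overlapped for Tgfbr2 and were barely separated for Tgfbr1. The differences were -0.47 (SE 0.21, adjusted p = 0.114) for Tgfbr1 and -0.48 (SE 0.22, adjusted p = 0.120) for Tgfbr2. With control replicate 2 left out they were -0.70 (adjusted p = 2.3e-06) and -0.72 (adjusted p = 1.4e-06), both short of 2-fold. The ratio of Tgfbr1 to Tgfbr2 was 0.676 to 0.720 in the controls and 0.676 to 0.710 with IGF1. The pair lay closer to each other over the 6 libraries than any other pair of the receptors, at a distance of 0.08 between their centred log2 values.

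**Figure D2:**
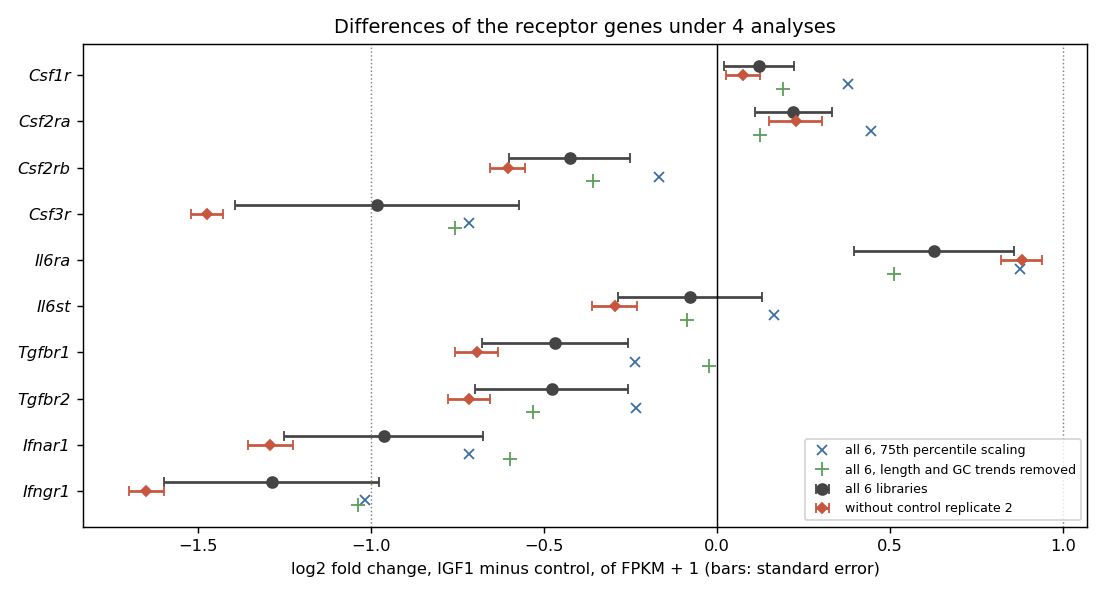
Differences of the receptor genes, IGF1 minus control, on the log2(FPKM + 1) scale, with standard errors for all 6 libraries (circles) and without control replicate 2 (diamonds), and with 75th percentile scaling (crosses) or length and GC trends removed (plus signs). Dotted lines mark 2-fold. Ifngr1 lies beyond the 2-fold line in all 4, and Tgfbr1 moves from -0.47 to -0.02 once the trends are removed.

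For 7 of the receptors control replicate 2 lay most of the way to the IGF1 libraries. On a scale where controls 1 and 3 stand at 0% and the IGF1 mean at 100%, control replicate 2 stood level with the IGF1 mean for Csf3r, at 99.8% for Tgfbr2 and 97.8% for Tgfbr1. It stood at 89.1% for Csf2rb, 86.6% for Il6ra, 76.1% for Ifnar1 and 66.0% for Ifngr1. Over the 3438 genes called without control replicate 2, the median position was 80.1% (interquartile range 67.7 to 91.4%). For Csf2ra the position was 8.3%, close to the other controls. For Il6st and Csf1r control replicate 2 lay outside the interval between the groups, at 220.7% and -186.9%. Set against control replicate 2 alone, with no test made, the IGF1 mean was lower by 0.56 on the log2 scale for Ifngr1 and by 0.31 for Ifnar1. It was higher by 0.36 for Il6st.

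**Figure D3:**
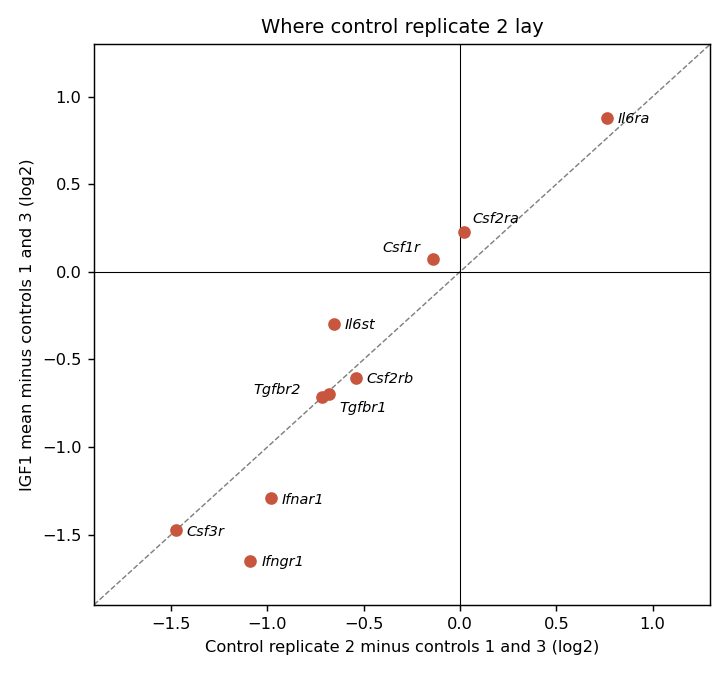
For each receptor, the log2 distance of control replicate 2 (horizontal) and of the IGF1 mean (vertical) from the mean of controls 1 and 3. Genes on the dashed line have the same level in control replicate 2 and in the IGF1 group. Csf3r, Tgfbr1 and Tgfbr2 lie on the line, and Ifngr1 and Ifnar1 lie below it, at -1.65 and -1.29 on the vertical axis.

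The size of several differences depended on how libraries were scaled. Scaling to the 75th percentile moved the median of all genes from -0.18 to 0.06, and 403 genes were then called higher and 211 lower, in place of 207 and 484. Ifngr1 was called lower under that scaling and under each other scaling tried, at -1.02 to -1.29 with all libraries. Csf1r and Csf2ra were 0.38 (adjusted p = 0.0437) and 0.44 (adjusted p = 0.0474) after 75th percentile scaling, both short of 2-fold. Il6ra was 0.87 (adjusted p = 0.0600) there and, with control replicate 2 also left out, 1.19 (adjusted p = 3.2e-08), past 2-fold. Removing trends with transcript length and GC content left Tgfbr1, whose transcript had the lowest GC content of the 10 at 41.0%, at -0.02 (adjusted p = 0.876) and Tgfbr2 at -0.53 (adjusted p = 0.119), or at -0.14 and -0.80 with control replicate 2 also left out. Ifngr1 stayed at -1.04 (adjusted p = 0.0492).

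The levels of the receptors spanned a wide range. Ifngr1 was the highest in both groups and stood at percentile 86.0 of all genes tested by its mean over the 6 libraries, whereas Csf2ra stood at percentile 27.2. In the controls Ifngr1 was followed by Csf3r (38.3 ± 18.5 FPKM, SD, n = 3), and its range did not reach that of Csf3r. From Csf3r downward each neighbour in the order of the controls overlapped the next, through Csf2rb, Csf1r, Ifnar1, Il6ra, Tgfbr2, Il6st, Tgfbr1 and Csf2ra. In the IGF1 libraries the order was Ifngr1, Csf3r (16.98 ± 0.720 FPKM, SD, n = 3), Csf1r, Il6ra, Csf2rb, Il6st, Tgfbr2, Ifnar1, Csf2ra and Tgfbr1. There the ranges overlapped for 2 neighbouring pairs, Il6ra with Csf2rb and Tgfbr2 with Ifnar1. Ifnar1 thus held rank 5 in the controls and rank 8 with IGF1, and Il6ra rank 6 and rank 4. The control ranks depended on control replicate 2. By the mean of controls 1 and 3, Ifnar1 (15.25 FPKM) was above Csf1r (14.47 FPKM). Il6ra (7.34 FPKM) was then below Tgfbr2 (10.15 FPKM) and Il6st (8.98 FPKM).

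This order rests on the transcript lengths used to make the FPKM values. The step of 1 read implied a length of 9646 bases for Csf2ra, 4.24 times its longest reference transcript, and 0.39 times that transcript for Il6ra. Expressed per base of the longest transcript, Csf2ra was at 17.5 FPKM in the controls and 21.1 FPKM with IGF1, above Csf1r at 12.9 and 14.1 FPKM. Ifngr1, with a ratio of 1.0, stayed the highest. Ratios of FPKM between libraries do not depend on this length. Differences of log2(FPKM + 1) do in part, since the added 1 weighs more at lower values. With 0.1, 1 or 5 added, the difference of Csf2ra was 0.26, 0.22 and 0.13. Reads per library ran from 281 for Tgfbr1 to 4418 for Csf3r, and the counting error at the lowest value was 3.0 to 6.0% of the level for each receptor.

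Genes around the receptors were read from 5 lists of other receptors, ligands, signal transducers, inhibitors and target genes. Of 133 genes listed, 104 could be tested, with 3 called higher and 4 lower over all libraries and 9 higher and 21 lower without control replicate 2. These are 2.88% and 3.85% of the genes tested, against 1.98% and 4.63% of all genes, and 8.65% and 20.2% without control replicate 2, against 12.3% and 20.6%. Of 37 other receptors, 1 was called higher and 1 lower, with a median of -0.29, and 3 were called higher and 8 lower without control replicate 2. In that fit Kit, the receptor of stem cell factor, was the lowest at -2.06. Il3ra, the IL-3 binding chain that pairs with Csf2rb, rose from 2.70, 7.24 and 3.20 FPKM in the controls to 10.5 to 11.3 FPKM with IGF1, at 1.23 (SE 0.31, adjusted p = 0.0466), and at 1.58 without control replicate 2. Il1rap, the accessory chain of the IL-1 receptor, fell from 3.34, 1.21 and 3.16 FPKM to 0.566 to 0.687 FPKM, at -1.08 (adjusted p = 0.0459). Il10rb and Il15ra had the smallest adjusted p of the list and stayed under 2-fold, at -0.89 (adjusted p = 0.0287) and -0.76 (adjusted p = 0.0290). For both of these, control replicate 2 was nearer the other controls than the IGF1 group, at 30.4% and 17.6% of the distance.

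Ligands were mostly below the filter. Only Tgfb1 and Osm of 18 could be tested, and 0 were called over all libraries by limma or by voom on the recovered reads, with 1 at an unadjusted p under 0.05, while Osm was called lower without control replicate 2. Tgfb1 was at 4.16 to 5.38 FPKM in the controls and 6.70 to 9.20 FPKM with IGF1 (0.58, adjusted p = 0.0504). Osm, which encodes a ligand that signals through gp130, was at 36.0, 12.3 and 37.0 FPKM in the controls and 14.6 to 15.8 FPKM with IGF1 (-0.71, adjusted p = 0.191), and its difference was -1.21 (adjusted p = 4.9e-09) without control replicate 2.

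Of 20 signal transducers, 0 were called over all libraries by limma or by voom, and at an unadjusted p under 0.05 1 was higher and 8 lower, where 19.0% and 34.4% of all genes are. Without control replicate 2, 1 was called higher (Smad4, the shared SMAD) and 5 lower, led by the kinase gene Jak1 at -1.55 and the adaptor gene Shc1 at -1.51. Over all libraries the smallest adjusted p belonged to Irf9, a transcription factor downstream of the type I interferon receptor, and to Lyn, a Src family kinase. Irf9 was at 52.5 to 55.1 FPKM in the controls and 37.3 to 38.3 FPKM with IGF1 (-0.49, adjusted p = 0.0337). Lyn was at 30.8 to 32.3 and 22.3 to 23.3 FPKM (-0.46, adjusted p = 0.0363). In these genes all 3 controls agreed closely, control replicate 2 included. Of 20 inhibitors, 0 were called over all libraries by limma or by voom, and 2 were higher and 5 lower at an unadjusted p under 0.05, again beside 19.0% and 34.4% of all genes. Without control replicate 2, Ski (1.27) was called higher and Socs3 (-1.88), Adam17 (-1.38) and Pias1 (-1.27) lower. Smad7 and Smad6, which restrain signalling from the TGF-β family, were at 3.57 to 4.82 against 7.38 to 8.07 FPKM (0.80, adjusted p = 0.0324) and at 1.97 to 2.31 against 3.0 to 3.20 FPKM (0.41, adjusted p = 0.0458).

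Of 25 target genes, 2 were called higher and 3 lower, with a median of -0.11, against 1.98% and 4.63% of all genes. Without control replicate 2, 4 were called higher and 4 lower, against 12.3% and 20.6% of all genes. Cebpb, a transcription factor of emergency granulopoiesis, rose from 54.6, 58.2 and 47.7 FPKM to 134 to 144 FPKM (1.38, SE 0.11, adjusted p = 0.0286), and control replicate 2 lay with the other controls. Pim1, a kinase gene induced by STAT5, rose from 12.9, 23.8 and 14.1 FPKM to 33.1 to 34.8 FPKM (1.02, adjusted p = 0.0419). Pim2, of the same kinase family, fell from 86.2, 23.4 and 85.8 FPKM to 13.5 to 14.4 FPKM (-1.92, adjusted p = 0.0483), and was at -2.53 without control replicate 2. Gbp2, an interferon-γ target, fell from 29.3, 17.2 and 28.7 FPKM to 7.33 to 7.95 FPKM (-1.54, adjusted p = 0.0287). Other interferon targets of the list differed in both directions. Isg15 and Bst2 were called higher without control replicate 2, at 1.48 and 1.84, but not over all libraries (adjusted p = 0.237 and 0.106 by limma). Over all libraries Ifit1 (-0.83, adjusted p = 0.0321) and Irf8 (0.73, adjusted p = 0.0369) stayed under 2-fold. Bcl3, a partner of NF-κB, fell from 31.2, 15.3 and 31.5 FPKM to 7.94 to 9.16 FPKM (-1.42, adjusted p = 0.0377). Cdkn1a, the cell cycle inhibitor p21, was at 67.1 to 69.1 FPKM in the controls and 111 to 120 FPKM with IGF1, short of 2-fold (0.76, adjusted p = 0.0286).

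**Figure D4:**
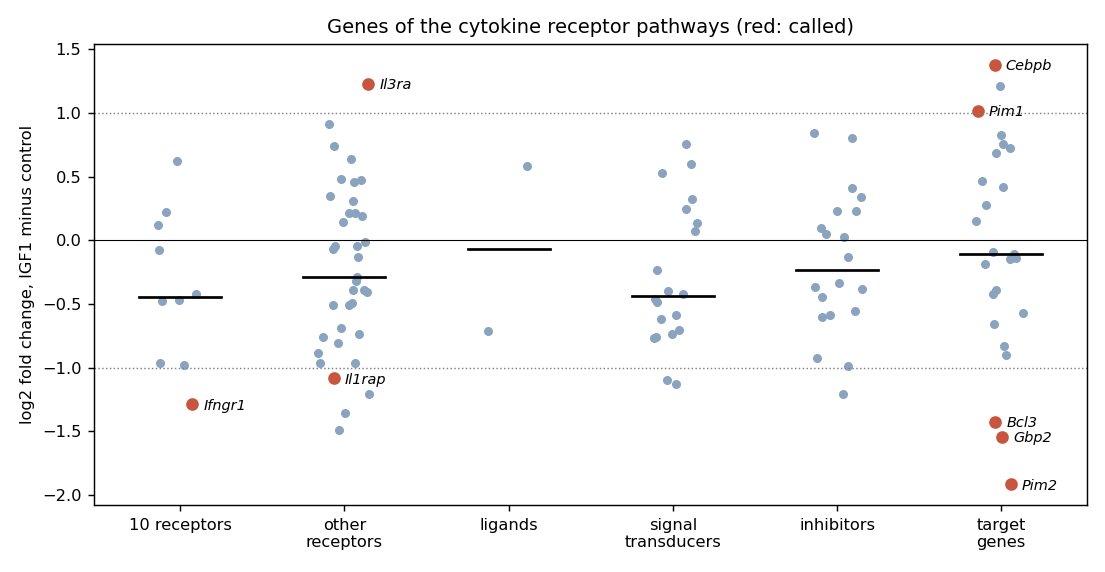
Log2 fold change, IGF1 minus control over all 6 libraries, of the 10 receptors and of the tested genes of the 5 lists, with 1 point per gene, horizontal bars at each list's median and dotted lines at 2-fold. Red points with names are called. Ifngr1 is the only called receptor of the 10, and Pim2 is the lowest point at -1.92.

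For each receptor the gene with the most similar pattern was found by the Euclidean distance of log2 values over the 6 libraries, each centred on its mean. These genes were Egln2 for Csf1r, Ccdc61 for Csf2ra, Rdx for Csf2rb, Armcx1 for Csf3r, Slc35d2 for Il6st, Susd3 for Il6ra, Ap2a1 for Tgfbr1, Ctnnbl1 for Tgfbr2, Tfg for Ifngr1 and Focad for Ifnar1. The distances ran from 0.026 for Tgfbr1 to 0.083 for Csf2ra. Tfg, for example, was at 62.4, 29.7 and 63.0 FPKM in the controls and at 18.4 to 20.1 FPKM with IGF1, and was itself called lower (-1.30, adjusted p = 0.0429).

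The promoter windows of the 4 receptors that differed most from controls 1 and 3 are printed so that the sequences stand beside the values. Each window is 300 bases of the gene's strand from RefSeq (GRCm38.p6), 250 before and 50 after the start. They are chr10:19591699-19591998 on the plus strand for Ifngr1, chr16:91484965-91485264 on the plus strand for Ifnar1, chr4:126024409-126024708 on the plus strand for Csf3r and chr3:89913147-89913446 on the minus strand for Il6ra. Capitals mark matches, on either strand, to 4 motifs. The core bound by PU.1, a factor of myeloid cells, was searched as GAGGAA. The site of STAT factors was searched as TTCNNNGAA. The GC box, a common promoter element, was searched as GGGCGG. The TATA box, found near the start of some genes, was searched as TATAAA.
Ifngr1: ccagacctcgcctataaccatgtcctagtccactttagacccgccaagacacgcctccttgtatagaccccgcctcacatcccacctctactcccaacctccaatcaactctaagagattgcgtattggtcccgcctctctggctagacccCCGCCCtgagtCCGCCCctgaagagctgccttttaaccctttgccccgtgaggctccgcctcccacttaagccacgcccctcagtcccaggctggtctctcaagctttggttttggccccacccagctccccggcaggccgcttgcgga
Ifnar1: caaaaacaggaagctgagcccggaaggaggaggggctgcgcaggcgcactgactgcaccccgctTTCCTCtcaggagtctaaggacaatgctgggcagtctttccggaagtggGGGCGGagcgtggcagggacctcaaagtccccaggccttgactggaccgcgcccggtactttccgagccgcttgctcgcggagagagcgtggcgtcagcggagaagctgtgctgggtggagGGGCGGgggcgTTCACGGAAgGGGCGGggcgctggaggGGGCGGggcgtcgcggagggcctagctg
Csf3r: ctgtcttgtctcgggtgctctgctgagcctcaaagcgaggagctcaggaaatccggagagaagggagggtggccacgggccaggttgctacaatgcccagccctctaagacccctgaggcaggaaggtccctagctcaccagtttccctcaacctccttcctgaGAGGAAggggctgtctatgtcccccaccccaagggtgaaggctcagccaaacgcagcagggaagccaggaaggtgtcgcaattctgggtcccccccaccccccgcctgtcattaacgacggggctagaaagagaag
Il6ra: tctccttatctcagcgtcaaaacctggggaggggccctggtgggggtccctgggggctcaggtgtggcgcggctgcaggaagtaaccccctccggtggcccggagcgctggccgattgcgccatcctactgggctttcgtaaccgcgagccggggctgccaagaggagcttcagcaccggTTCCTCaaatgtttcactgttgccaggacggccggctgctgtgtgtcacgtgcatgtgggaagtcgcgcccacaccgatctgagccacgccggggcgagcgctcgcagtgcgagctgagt

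Ifngr1 held 2 GC boxes and Ifnar1 held 4 GC boxes, 1 STAT motif next to a GC box and 1 PU.1 core. Csf3r and Il6ra each held 1 PU.1 core. Over all 32851 windows of this length, 28.3% held the PU.1 core, 8.3% the STAT motif, 35.7% the GC box and 13.6% the TATA box. Windows on chromosome 18, where Csf1r lies, were left out of the search, and none was found for Csf2rb. Windows were thus used for 8 of the 10 receptors. Their GC content was 59.0 to 74.7%, apart from an alternative start of Tgfbr1 at 52.0%, and the median of all windows was 52.7%. None of the receptor windows used held the TATA box. The matches describe the letters of these windows and are not shown to be bound.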

How the data were processed

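RNA-seq of sorted mouse BM HSCs was used, 3 control and 3 IGF1 libraries grouped by their titles. The authors trimmed reads with fastp and, per their methods, quantified genes with RSEM, while the submitters' processing notes name HISAT2 and StringTie and the builds GRCm38 and mm10. Each deposited file gives a value per gene symbol, taken as FPKM (the files name no unit). Whole reads were recovered from the steps of the FPKM values for 14838 of 14838 genes (within 0.005 reads). They are the smallest whole numbers that the steps allow, so their total is approximate.

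The 10449 genes that reached 1 FPKM in 3 or more libraries were compared by limma (version 3.58.1, R 4.3.3, eBayes with trend) after log2(FPKM + 1) transformation. Adjustment was by Benjamini-Hochberg over all genes, with a fold change over 2 and adjusted p under 0.05 for a call, the study's thresholds. Fold changes on this scale understate those of low genes. The scripts were tested on simulated data. Single receptors were also tested by exact permutation. Alternatives covered scaling, filter, pseudocount, variance trend, replicate block, library weights, voom on recovered reads, trends with length and GC content (10101 genes with both), and leaving out each library.

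Replicate numbers are shared by the groups. Correlations of same-numbered deviations from the group means were -0.057, -0.050 and 0.006. The deviations of the controls mostly reflect control replicate 2, so these values cannot show whether the libraries were paired. The receptors and the gene and marker lists were chosen with earlier results of these data known. Named genes were the receptors, the called genes and 2 smallest adjusted p of each list, the nearest pattern of each receptor and the leading gene of a marker list. Ngp, Camp, S100a8, S100a9, Treml1, Gp6, Ly6c1, Itgam, Cd34, Flt3, Cd3e, Ly6g, Elane, Prtn3, Kit, Ly6c2, Ms4a6c, Vcam1, Smad4, Jak1, Shc1, Ski, Socs3, Adam17, Pias1, Isg15, Bst2, Ifit1, Irf8, Ifngr2, Ifnar2 and Csf2rb2 were named after their values were seen. Symbols were matched to GENCODE for positions and lengths.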

Additional observations from a re-analysis of the deposited data

How the results depend on the processing

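With quantile normalization 319 genes were called lower and 5 pathway genes higher, and with 75th percentile scaling 403 and 211 genes and 6 and 2 pathway genes (higher and lower). TMM scaling gave 304 genes lower. No filter gave 109 and 265 genes, 0 receptors and 2 pathway genes lower. A pseudocount of 5 gave 66 and 157 genes and 1 and 2 pathway genes. Library weights, which gave control replicate 2 a weight of 0.014, gave 1276 and 2159 genes, 3 receptors lower and 9 and 21 pathway genes. Voom gave 380 genes higher. Removing length and GC trends gave 153 genes and 2 pathway genes lower. Adjusted p alone gave 654 and 1476 genes and 9 and 14 pathway genes.

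Leaving out 1 library gave 0 to 1281 genes higher, 0 to 2157 lower, 0 to 3 receptors lower, 0 to 9 pathway genes higher and 0 to 21 lower. The upper values came without control replicate 2, and each other library left out gave 0 called by limma, with 959 to 1033 genes higher and 2019 to 2172 lower at an unadjusted p under 0.05. The combinations that follow were chosen after seeing the data, each without control replicate 2. With 75th percentile scaling they gave 1881 and 1242 genes, 1 and 2 receptors and 18 and 12 pathway genes. With quantile normalization they gave 1473 and 1435 genes, 1 and 2 receptors and 15 and 14 pathway genes. With length and GC trends removed they gave 1161 and 941 genes, 2 receptors lower and 11 and 16 pathway genes.

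Il6st reversed to 0.21 (quantile), 0.17 (75th percentile), 0.061 (TMM), 0.035 and 0.027 (without control replicate 1 or 3), and 0.012 and 0.089 (75th percentile and quantile without control replicate 2). Leaving out 1 library, it ran from -0.296 to 0.035. The other 9 receptors kept their direction in all settings that gave a value. A minimum of 5 FPKM gave none for Csf2ra and Tgfbr1. Ifngr1 ran from -1.65 to -1.02 and lost its call without a filter (adjusted p = 0.0528). The fit with a replicate block, whose pairing could not be checked, called 0 genes by limma in either direction, 0 receptors and 0 pathway genes. At an unadjusted p under 0.05 it had 1707 genes higher and 3084 lower. Ifngr1 stayed at -1.29 (adjusted p = 0.0851) with the block. The causes of these shifts were not tested, beyond the 1 library left out. Each receptor had at least 281 recovered reads in every library, and the part of depth in the receptor values was not tested. Recovered reads were 15879352 and 15973581 in control replicates 1 and 3, 11429050 in control replicate 2 and 11206746 to 12756177 with IGF1. Depth thus differed between the same libraries as most receptor values. With 3 libraries a group, permutation cannot go below p = 0.1.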
